A study of Mus musculus with 6 samples.

Results

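The cadherin superfamily genes of the mouse brain were examined in animals lacking Dap12 and in heterozygous animals. Members were all probe sets (sets of short probes that read 1 transcript) whose single gene symbol in the platform annotation begins with Pcdh, or is Cdh followed by a digit. This gave 56 genes of the 18193 with such a probe set, read by 101 probe sets of 34945. There were 35 protocadherin genes with 62 probe sets and 21 cadherin genes with 39 probe sets. By class they comprised 22 genes of the clustered beta protocadherins, 1 of the clustered gamma protocadherins, 4 delta-1, 5 delta-2 and 3 other protocadherins, 5 type I and 11 type II classical cadherins, and 5 other cadherins.

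Dap12 is the adaptor protein encoded by Tyrobp, through which receptors such as Trem2 signal in microglia. RNA came from midbrain, diencephalon and basal ganglia of mice aged 1 month, and was hybridised to 6 arrays with a single label. The Dap12-ko group held 3 arrays, named 67, 68 and Ko1, and the Dap12-het group, whose animals carry 1 intact copy of the gene, held 3 arrays, named 75, 76 and 81. The labels put the heterozygous arrays under the same Dap12-deficient tissue name as the knockout arrays, so the group was taken from the title and description. The strain, the sex and the kind of knockout allele are not named in the labels. These also do not say whether each array is a separate animal, so p-values measure only the spread between these samples.

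Cadherins are calcium-dependent adhesion proteins whose outer domains bind cadherins on the next cell. Classical cadherins hold the cytoskeleton through catenins on their inner tail, and different brain nuclei carry different type II cadherins. Clustered protocadherins are expressed from alternative promoters chosen in single neurons, which gives each neuron its own surface mixture, while the delta protocadherins stand outside the clusters and mark particular brain regions and circuits.

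The starts of 4 non-clustered protocadherin genes are shown because these genes gave the largest change among the protocadherins (Pcdh19 and Pcdh9) or the brightest delta-2 signals (Pcdh17 and Pcdh8). Each sequence is the 250 bases before the gene start in the RefSeq promoter table for GRCm38.p6, written in the direction of the gene. Capitals mark 4 motifs found by a letter search on both strands. They were GGGCGG, known as the GC box, the CCAAT box, the TATAAA form of the TATA box, and the E box CACGTG. A motif on the opposite strand appears as its reverse complement. No motifs overlapped in these 4 windows.
Pcdh19, chrX:133688994-133689243, minus strand: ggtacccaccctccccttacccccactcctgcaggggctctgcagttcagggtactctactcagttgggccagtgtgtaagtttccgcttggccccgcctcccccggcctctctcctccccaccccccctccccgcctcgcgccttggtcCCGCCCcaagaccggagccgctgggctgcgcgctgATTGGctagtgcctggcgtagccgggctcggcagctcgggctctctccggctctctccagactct
Pcdh9, chr14:93890680-93890929, minus strand: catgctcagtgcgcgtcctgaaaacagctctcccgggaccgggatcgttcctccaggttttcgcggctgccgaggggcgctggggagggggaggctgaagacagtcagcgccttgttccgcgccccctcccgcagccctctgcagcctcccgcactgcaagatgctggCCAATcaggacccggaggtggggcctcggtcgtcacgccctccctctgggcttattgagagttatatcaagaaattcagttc
Pcdh17, chr14:84443313-84443562, plus strand: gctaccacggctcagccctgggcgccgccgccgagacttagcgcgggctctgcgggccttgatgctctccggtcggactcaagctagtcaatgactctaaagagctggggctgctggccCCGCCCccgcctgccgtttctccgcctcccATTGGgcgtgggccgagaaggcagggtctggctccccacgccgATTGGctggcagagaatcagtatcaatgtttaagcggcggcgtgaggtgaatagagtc
Pcdh8, chr14:79771313-79771562, minus strand: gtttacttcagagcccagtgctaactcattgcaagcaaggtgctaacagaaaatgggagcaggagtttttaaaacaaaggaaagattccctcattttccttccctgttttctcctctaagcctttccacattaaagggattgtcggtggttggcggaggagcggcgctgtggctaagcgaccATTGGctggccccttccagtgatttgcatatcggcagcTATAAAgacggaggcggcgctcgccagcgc

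All 4 windows held CCAAT. In the Pcdh19 window it lay on the opposite strand at -65 from the gene start, with a GC box at -100. The Pcdh9 window held it on the gene's own strand at -82. Pcdh17 had it at -101 and -58 and a GC box at -131, and Pcdh8 at -68, with a TATA box at -30. The table held 23 promoters for 20 of the 56 genes. None of the 20 was a clustered protocadherin. Pcdh9 and Cdh7 were counted with more than a single promoter each, and the starts for Pcdh9 lay 10 bases apart. CCAAT stood in 15 of these 23 (65.2%) and in 33.8% of all 32851 promoters of the same length. The GC box stood in 8 (34.8%) against 32.7% of all, the TATA box in 2 (8.7%) against 12.4%, and the E box in 1 (4.35%) against 6.02%. The G and C content of the 4 windows was 69.2% for Pcdh19, 63.6% for Pcdh9, 64.8% for Pcdh17 and 51.2% for Pcdh8, beside a median of 58.4% over member promoters and 52.4% over all promoters. These matches describe letters in a short window.

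In RefSeq gene order many members lie beside each other. The 22 beta protocadherins follow one another with 0 other coding genes between them. Pcdh8 and Pcdh17 have 1 coding gene between them, Pcdh17 and Pcdh20 have 2, and Pcdh20 and Pcdh9 have 0. Cdh8, Cdh11 and Cdh5 form a run with 0 between neighbours, as do Cdh6, Cdh9 and Cdh10, and also Cdh7 with Cdh19. Changes of neighbouring members did not all have 1 sign, as the values of Pcdh17, Pcdh20 and Pcdh9 show.

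The arrays differed in ways that bear on every comparison. Each array had a trimmed mean signal of 100, yet median signals were 24.7 to 40.4 on the knockout arrays and 20.3 to 21.98 on the heterozygous arrays. The highest signal of any probe set, controls included, was 46271, 28024 and 16673 on knockout 67, 68 and Ko1. On the heterozygous arrays it was 7417 to 7790. The part of this difference at the top of the scale in the marker sums below was not tested. Of 24 spiked control probe sets, 22 stood above all heterozygous arrays on each knockout array. The Tyrobp probe set (1450792_at) gave 2.28, 23.7 and 12.9 on the knockout arrays and 70.7, 68.2 and 77.6 on the heterozygous arrays, a log2 change of -1.68 ± 0.33 (limma, adjusted p = 0.0439, and 0.0888 to 0.216 without any 1 array other than Ko1). Marker lists were summed over the brightest probe set of each gene. Sums of 7 striatal genes ran from 667 to 7801 on the knockout arrays and from 1810 to 6951 on the heterozygous arrays, and 0 of these 7 probe sets separated the groups, while 2 dimmer ones (of Pde10a and Tac1) were higher in the knockout. Sums of 11 hypothalamic genes ran from 1455 to 5052 and from 3243 to 6491, with 5 genes lower and 1 higher on every knockout array. Of the 12 hypothalamic probe sets tested, 3 fell. Sums of 7 choroid plexus genes ran from 700.3 to 18075 and from 897.9 to 3800.5, and 2 of these genes were higher on every knockout array. Other lists had sums that did not overlap between groups. For 8 neuronal genes they were 18876 to 23414 against 16189 to 16670, with 2 genes higher and 1 lower on every knockout array. For 12 microglial genes they were 2680 to 2979 against 1837 to 2221, with 4 higher and 1 lower. For 11 myelin genes they were 29568 to 68922 against 22676 to 23372, with 4 higher and 2 lower. Those of 8 astrocyte genes (2 higher, 0 lower) and 8 meningeal genes (2 higher, 0 lower) were also higher throughout. Over all probe sets, 16.9% were higher and 7.42% lower on every knockout array. Single genes carried some sums. On knockout 67, Ptgds gave 7249 of the meningeal 7861, Ttr 16069 of the choroid plexus 16416 and Mbp 36156 of the myelin 68922. The part of these differences in the changes of Pcdh19, Cdh13 and the other members was not tested. None of the marker genes was listed at 0. In whole tissue, fewer cells of a type and less RNA per cell cannot be told apart.

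Signals are listed in the order 67, 68 and Ko1 for the knockout and 75, 76 and 81 for the heterozygous arrays. They are linear intensities scaled by the authors, and log2 changes (knockout minus heterozygous) are of log2(signal + 16), which understates the change of dim probe sets. Of the 101 member probe sets, 58 in 33 genes lay above the median level of all probe sets and were tested with limma. At an adjusted p of 0.05, 1 rose and 2 fell in the knockout, and 55 did not pass. Over all 22518 probe sets tested, 280 rose (1.24%) and 165 fell (0.733%). The 3 members that passed were Pcdh19 and Cdh13, which fell, and Pcdh9, which rose at its dimmest probe set. That Pcdh9 probe set was tested only because its knockout signals were high. Its heterozygous mean of 20.9 lay below 24.3, the lowest mean signal of any probe set tested. At an unadjusted p of 0.05, 5 members were higher (11.7% of all probe sets tested were) and 9 lower (9.22% of all). Of the 5, Pcdh7 1427592_at and Cdh15 1418602_at, like Pcdh9, had heterozygous means (21.6 and 16.2) below 24.3. They too were tested only because their knockout signals were high. Calls turned on single arrays over the whole table. Without knockout Ko1, 6 of 56 members rose and 13 fell, among them the same 3, beside 11.9% and 11.3% of all probe sets tested. When any of the other 5 arrays was left out, 0 members rose and 0 fell (at an unadjusted p of 0.05, 3 to 6 higher and 5 to 7 lower), and 0 to 29 probe sets of the whole table passed.

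Counted over all 101 probe sets, dim ones included, 15 stood above all heterozygous arrays on each knockout array (16.9% of all probe sets did) and 12 stood below them on each (7.42% of all). The groups overlapped for the other 74. The median log2 change of the 101 was 0.15, beside 0.16 for all probe sets on the arrays, and single changes ran from -1.48 to 1.77. With each array centred on its median, the median change was -0.25 for members and -0.25 for all probe sets, and the split of members above and below 0 went from 60 and 41 to 28 and 73. With quantile normalization it was 50 and 51. A part of the small changes therefore turned sign with the scaling.

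The sign of a member's change went with its level. Below a mean signal of 50, 13 of 56 probe sets were higher on every knockout array (23.2%, beside 19.1% of all probe sets of that level) and 3 lower (5.36%, beside 2.64%), with a median change of 0.27 beside 0.26 for all probe sets of that level. Between 50 and 100 the median of 19 was 0.17 (0.053 for all probe sets), and between 100 and 200 the median of 9 was -0.21 (-0.0897). Between 200 and 500 the median of 14 was -0.35 (-0.16), with 0 higher and 6 lower on every knockout array, and both probe sets that fell are in this range. Lower on every knockout array were 21.2% of all 4214 probe sets of this level and 42.9% of the members. The 3 members at 500 or more had a median of -0.80 (-0.044). Dim members thus lay at the level of other dim probe sets, and the brighter members lay lower than other probe sets of their level. No test was made of that difference.

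**Figure D1:**
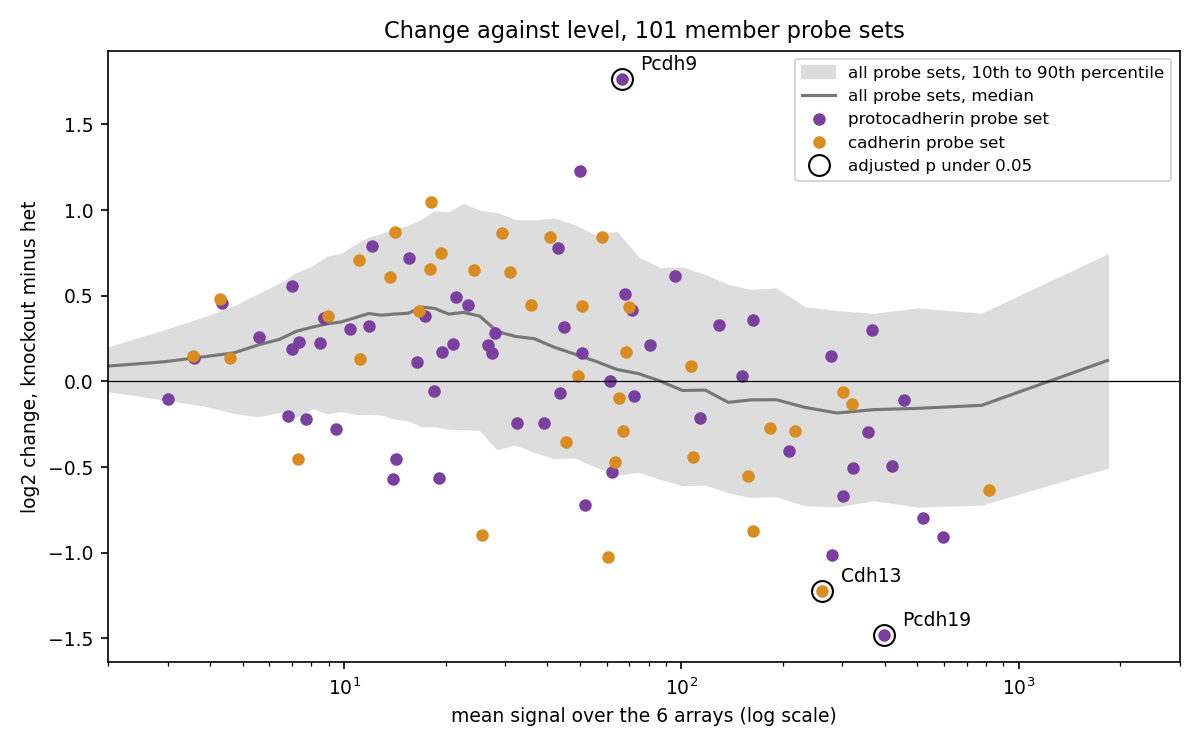
Log2 change (vertical axis, knockout minus heterozygous) against the mean signal over 6 arrays (horizontal axis, log scale) for the 101 member probe sets, each a point, over a grey band and line for the spread and median of all probe sets. Points on the left lie mostly above 0 and points above a signal of 200 mostly below it, with Pcdh19 at -1.48 and Pcdh9 (1458269_at) at 1.77 as the extremes.

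The delta-2 protocadherins had the lowest median of the classes with more than 1 probe set. Over 16 probe sets of Pcdh8, Pcdh10, Pcdh17, Pcdh18 and Pcdh19 it was -0.50. Of the 14 tested, 1 fell, 0 rose and 13 did not pass, and at an unadjusted p of 0.05 there were 5 lower and 1 higher, beside 9.22% lower and 11.7% higher of all probe sets tested. Of the 16, 4 were lower (25%) and 1 higher (6.25%) on every knockout array, beside 7.42% and 16.9% of all probe sets. The delta-2 class was also the brightest, with a median mean signal of 203. Between signals of 200 and 500, 21.2% of all probe sets were lower and 9.11% higher on every knockout array. The part of level in the low median was not tested. Several of these proteins recruit the WAVE complex, which drives actin assembly, through their inner tails, and they guide axon growth and synapse formation.

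Pcdh19, a protocadherin whose mutation causes epilepsy in girls, fell most. At 1437360_at it read 202, 198 and 204 on the knockout arrays and 518, 579 and 684 on the heterozygous arrays. The knockout arrays lay within a narrow range far below the lowest heterozygous array. Mean signals were 201 ± 2.70 against 594 ± 83.8 (SD, n = 3 each), a log2 change of -1.48 ± 0.18 (adjusted p = 0.0171), with an exact permutation p of 0.1, the smallest that 3 arrays against 3 allow. Leaving out each array in turn moved the change between -1.57 and -1.37 and the adjusted p between 0.00136 and 0.126. The other Pcdh19 probe sets had smaller changes. At 1455145_at the signals were 256, 208 and 336 against 348, 408 and 379, lower on every knockout array, with a change of -0.50 ± 0.21 (adjusted p = 0.228). At 1444422_at they were 153, 141 and 68.9 against 69.5, 83.7 and 57.2, which overlap, with a change of 0.62 ± 0.30 (adjusted p = 0.279) in the opposite direction. Of the 3 probe sets for Pcdh19, then, 1 passed the test.

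Pcdh17, an adhesion protein of synapses in basal ganglia circuits, and Pcdh8, a neuronal protocadherin induced by activity, did not pass at any probe set. Pcdh17 at 1453070_at gave 319, 243 and 754 on the knockout arrays and 628, 726 and 903 on the heterozygous arrays, a change of -0.91 ± 0.37 (adjusted p = 0.215). At 1436920_at it gave 385, 302 and 355 against 457, 521 and 502, a change of -0.49 ± 0.18 (adjusted p = 0.17). Only the second separated the groups. Pcdh8 at 1417051_at gave 169, 101 and 298 against 402, 319 and 384, lower on every knockout array, with a change of -1.01 ± 0.33 (adjusted p = 0.138). At 1447825_x_at it gave 319, 142 and 829 against 570.2, 493 and 771, which overlap, with a change of -0.80 ± 0.52 (adjusted p = 0.416). In each group the array with the highest signal at Pcdh17 1453070_at and Pcdh8 1447825_x_at, Ko1 and 81, was also the array with the highest striatal marker sum (7801 and 6951). Ko1 and 81 also had the lowest sums of their groups for 7 thalamic genes (814 and 2146) and 7 midbrain dopamine neuron genes (370 and 427). The part of striatal or other regional content in these changes was not tested. Without knockout 67 and 68 the change became 0.018 for Pcdh17 1453070_at and 0.45 for Pcdh8 1447825_x_at.

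Pcdh10, which guides axons through the striatum, was read by 6 probe sets whose changes differed in sign. At the brightest by mean signal, 1438134_at, signals were 146, 156 and 440.4 against 331, 385 and 349.5, a change of -0.67 ± 0.37 (adjusted p = 0.344). At 1442565_at they were 80.5, 40.3 and 56.7 against 29.3, 24.7 and 26.6, higher on every knockout array, with a change of 0.78 ± 0.28 (adjusted p = 0.159). At the first, Ko1 stood above all heterozygous arrays, and without 67 and 68 the change there was 0.30. The other 4 Pcdh10 probe sets overlapped, with changes of 0.15 at 1430667_at, 0.33 at 1425563_s_at, 0.51 at 1444301_at and -0.72 at 1421311_at (adjusted p of 0.377 to 0.782 with limma). Pcdh18 had 3 probe sets, with changes of -0.53, 0.17 and 0.26, all overlapping.

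**Figure D2:**
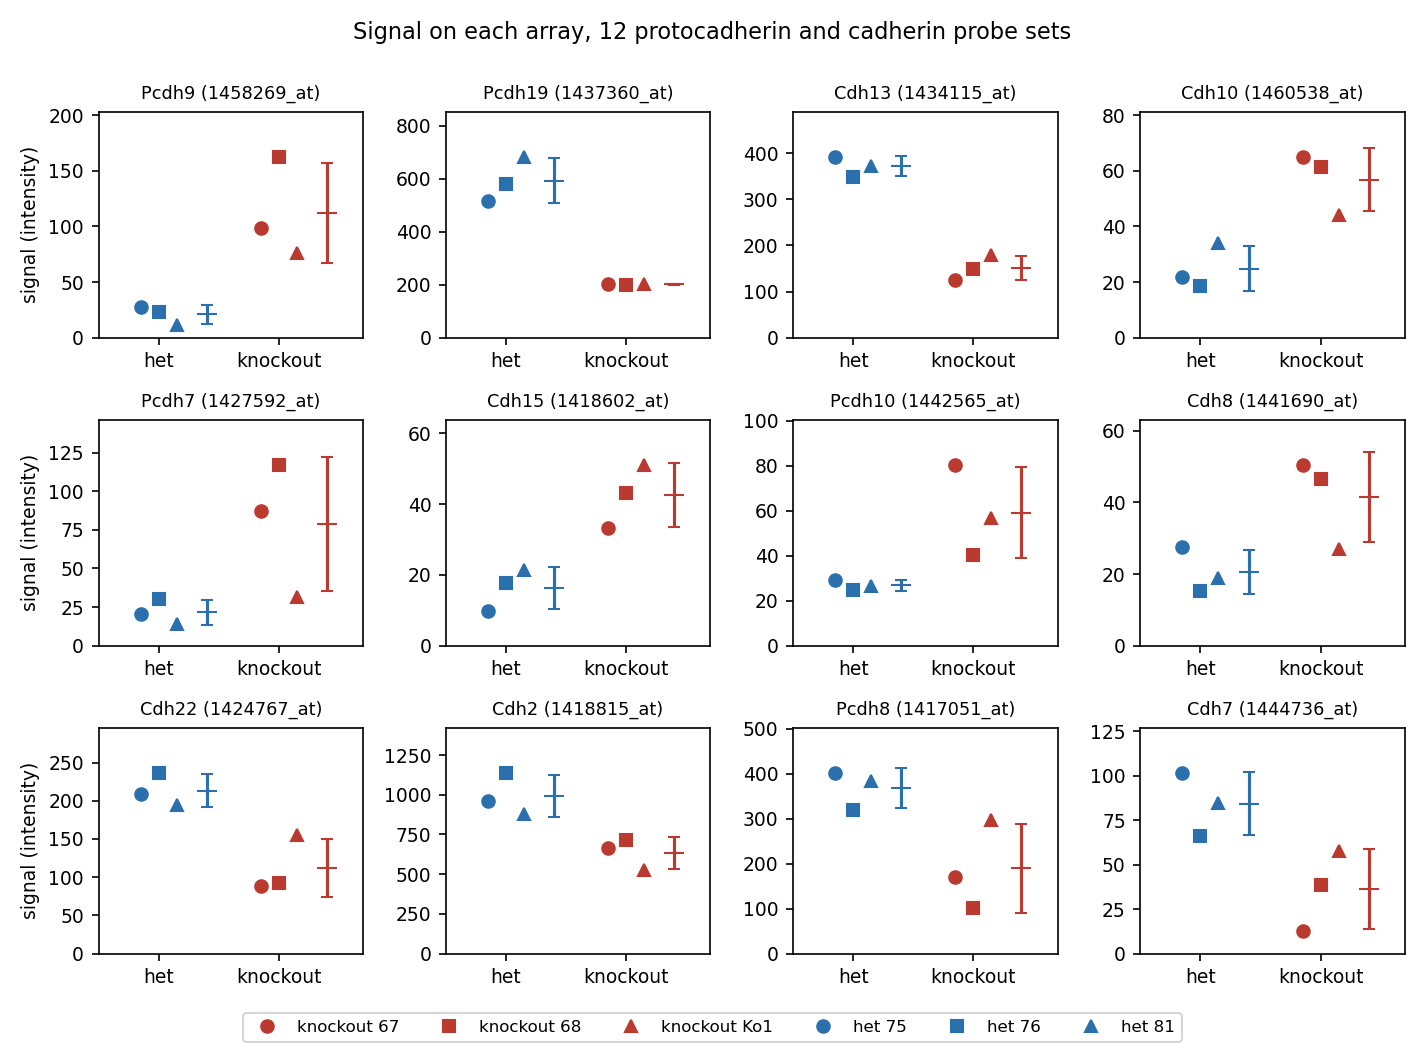
Signal (linear intensity, vertical axis from 0) on each of the 3 heterozygous and 3 knockout arrays for 12 member probe sets, 1 panel each, with the group mean and SD as a bar beside the points. In the Pcdh19 1437360_at panel the knockout arrays lie between 198 and 204 and the heterozygous arrays between 518 and 684.

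Among the delta-1 protocadherins, which bind the phosphatase PP1-alpha through their inner tails, 1 of 7 probe sets tested rose, 0 fell and 6 did not pass. Over the 9 probe sets of Pcdh1, Pcdh7, Pcdh9 and Pcdh11x the median change was 0.029. Pcdh9 at 1458269_at gave 98.3, 163 and 75.8 on the knockout arrays and 27.8, 23.2 and 11.6 on the heterozygous arrays. Every knockout array stood above the heterozygous arrays, which were all dim. The probe set passed the filter on level only through its knockout signals. Mean signals were 112 ± 45.00 against 20.9 ± 8.34 (SD, n = 3 each), a log2 change of 1.77 ± 0.32 (adjusted p = 0.0385) and an exact permutation p of 0.1. Leaving out each array in turn moved the adjusted p between 0.00473 and 0.179, and with quantile normalization the change was 1.55 (adjusted p = 0.0705).

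The 2 brighter Pcdh9 probe sets did not show it. At 1429861_at the signals were 385, 527 and 408 against 496, 492 and 426, a change of -0.11 ± 0.19 (adjusted p = 0.791). At 1442659_at they were 508, 424 and 297 against 304, 289.6 and 379, a change of 0.30 ± 0.24 (adjusted p = 0.499). Both overlap. Pcdh7 also differed between its probe sets. At 1456214_at, the brightest, its signals were 312, 276 and 377 against 403, 396 and 385, lower on every knockout array, with a change of -0.29 ± 0.19 (adjusted p = 0.405). At 1427592_at they were 87.4, 117 and 31.5 against 20.3, 30.4 and 14.03, higher on every knockout array. The change was 1.23 ± 0.40 (limma, adjusted p = 0.134). This probe set, with a heterozygous mean of 21.6, passed the filter on level only through its knockout signals. Thus neither Pcdh9 nor Pcdh7 had 1 direction over its probe sets. Pcdh11x gave -0.41 and 0.029 at its probe sets, both overlapping, and the single Pcdh1 probe set, not tested because it was dim, gave 1.69, 22.1 and 15.8 against 24.4, 23.6 and 27.3.

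The clustered beta protocadherins did not separate the groups. Their 22 genes had 28 probe sets with mean signals of 3.002 to 114, of which 10 were tested with limma. Of these, 0 rose and 0 fell, also at an unadjusted p of 0.05. Over the 28 the median change was 0.18, from -0.45 to 0.55, with 19 above 0 and 9 below, close to the 0.16 of all probe sets. The groups overlapped at 27, and the exception was Pcdhb2 at a dim probe set, with 14.9, 3.08 and 11.4 against 18.9, 21.6 and 15.6. Over all 45037 probe sets the groups overlapped at 34096, with 16.9% higher and 7.42% lower on every knockout array. The brightest, Pcdhb9 at 1422640_at, gave 98.5, 72.3 and 146 on the knockout arrays and 117, 102 and 148 on the heterozygous arrays, a change of -0.21 ± 0.27 (adjusted p = 0.685). Pcdhgc4, a gamma member that neurons need to survive in development, was dim and not tested, with 19.6, 2.56 and 2.58 against 15.97, 9.65 and 33.1. Beta genes are near copies of each other, so signals of 1 may include another.

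Of the other protocadherins, 0 of 3 probe sets tested passed in limma (0 at an unadjusted p of 0.05). Pcdh20 at 1424701_at gave 277, 146 and 143 against 154, 124 and 133, a change of 0.36 ± 0.27 (adjusted p = 0.483), and at 1451454_at its change was -0.24 ± 0.33 (adjusted p = 0.709). Pcdh15, a tip-link protein of hair cells, gave 71.4, 69.5 and 20.1 against 38.4, 35.8 and 33.5 at 1444317_at. Pcdh12, a protocadherin of blood vessel walls, had 3 dim probe sets that were not tested, with changes of 0.72, 0.79 and 0.46. At 1450473_at knockout 67 stood far above the rest, with 64.99, 2.14 and 1.98 against 1.04, 0.959 and 1.67.

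Cdh13, or T-cadherin, which is held in the membrane by a lipid anchor and has no inner tail, fell. At 1434115_at it read 126, 149 and 178 on the knockout arrays and 392, 349 and 372 on the heterozygous arrays. No knockout array reached the lowest heterozygous signal. Mean signals were 151 ± 26.2 against 371 ± 21.6 (SD, n = 3 each), a log2 change of -1.22 ± 0.20 (adjusted p = 0.0287) and an exact permutation p of 0.1. Leaving out each array in turn gave changes of -1.34 to -1.11 and adjusted p-values of 0.00196 to 0.188, and with quantile normalization the change was -1.14 (adjusted p = 0.0517). The other Cdh13 probe sets were dimmer. At 1423551_at the signals were 46.8, 71.1 and 169 against 111, 119 and 131, where Ko1 stood above all heterozygous arrays, with a change of -0.44 ± 0.37 (adjusted p = 0.53). At 1454015_a_at they were 35.03, 38.2 and 26.1 against 17.8, 16.9 and 11.03, higher on every knockout array, with a change of 0.65, and at 1431824_at the change was 0.14, both not tested. The remaining cadherins outside the classical types, Cdh16, Cdh17, Cdh23 and Cdh26, were too dim to be tested.

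Type I classical cadherins gave 0 calls among 5 probe sets tested with limma (1 higher and 1 lower at an unadjusted p of 0.05). Cdh2, or N-cadherin, the main classical cadherin of neurons and neural progenitors, had the highest mean signal of all members. At 1418815_at it gave 663, 717 and 524 on the knockout arrays and 963, 1139 and 876 on the heterozygous arrays. The highest knockout array lay below the lowest heterozygous array. Mean signals were 635 ± 99.9 against 993 ± 134 (SD, n = 3 each), a change of -0.64 ± 0.19 (adjusted p = 0.118). With arrays centred on their medians the change was -1.04 and passed (limma, adjusted p = 0.0444). Centring lowers every probe set by the same amount, and the median change of all probe sets went from 0.16 to -0.25. The dimmer Cdh2 probe set, 1449244_at, overlapped with 363, 377 and 191 against 348, 356 and 284, a change of -0.13 ± 0.27 (adjusted p = 0.817). Cdh15, or M-cadherin, of muscle and cerebellar cells, gave 33.2, 43.2 and 51.1 against 9.73, 17.6 and 21.4 at 1418602_at. It was higher on every knockout array, with a change of 0.87 ± 0.29 (limma, adjusted p = 0.143). With a heterozygous mean of 16.2, this probe set passed the filter on level only through its knockout signals. Cdh4, or R-cadherin, overlapped at all 3 probe sets, with changes of -0.55, 0.093 and 0.15. The epithelial cadherins were dim and not tested: Cdh1 (E-cadherin) gave 41.5, 22.5 and 14.2 against 9.83, 12.8 and 7.16, and Cdh3 (P-cadherin) gave 40.6, 22.5 and 26.7 against 4.54, 3.76 and 10.02 at 1426673_at, both higher on every knockout array. Signals this low had a median change of 0.28 over all 43 untested members, of which 33 lay above 0.

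Type II classical cadherins, which differ between brain nuclei and sort neurons into them, gave 0 calls among 17 probe sets tested with limma (1 higher and 2 lower at an unadjusted p of 0.05). Their 21 probe sets had a median change of 0.034. Cdh22 at 1424767_at came nearest to the threshold, with 88.4, 91.9 and 155 on the knockout arrays and 209, 237 and 194 on the heterozygous arrays. It was lower on every knockout array, with a change of -0.88 ± 0.24 (adjusted p = 0.0967). Cdh7 at 1444736_at gave 12.8, 38.5 and 57.98 against 102, 66.4 and 84.9, again lower on every knockout array, with a change of -1.02 ± 0.36 (adjusted p = 0.155), while its other probe sets overlapped with changes of 0.44 and 0.034. Cdh10 at 1425092_at, its brightest, gave 211, 192 and 178 against 238, 278 and 208, a change of -0.29 ± 0.19 (adjusted p = 0.432). At 1460538_at Cdh10 gave 65.02, 61.4 and 43.9 against 21.7, 18.7 and 33.9, higher on every knockout array, with a change of 0.84 ± 0.27 (adjusted p = 0.133). The 2 remaining Cdh10 probe sets, dim and not tested, were lower on every knockout array at 1446399_at (-0.89) and higher at 1433302_at (0.75). The probe sets of Cdh10 therefore pointed both ways.

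Cdh11, a cadherin of mesenchymal cells and neurons, had the highest mean signal of the type II genes. At 1450757_at it gave 333, 285 and 260.5 against 273, 389.7 and 266, a change of -0.061 ± 0.21 (adjusted p = 0.9), and at 1435120_at the change was -0.29 ± 0.24 (adjusted p = 0.521). Cdh8, of cortical and striatal projection neurons, gave changes of 0.64 ± 0.30 (adjusted p = 0.263) at 1441690_at, -0.27 ± 0.23 (adjusted p = 0.536) at 1422052_at and -0.36 ± 0.35 (adjusted p = 0.602) at 1455365_at. The groups overlapped at all Cdh8 and Cdh11 probe sets. Closest to separate was Cdh8 at 1441690_at, with 50.5, 46.6 and 27.02 against 27.5, 15.4 and 18.8. With a heterozygous mean of 20.6, that probe set passed the filter on level only through its knockout signals. Cdh5, the cadherin of endothelial junctions, gave changes of 0.45 and 0.61. The summed signal of 9 endothelial and pericyte markers was 1087 to 1854 on the knockout arrays and 1417 to 1554 on the heterozygous arrays. Cdh6, Cdh9, Cdh18, Cdh19 and Cdh20 had 6 probe sets in all, and none of those tested passed. Examples outside the classes' leading probe sets, such as Pcdhb2, Pcdh12, Cdh1, Cdh3, Cdh4 and Cdh5, were chosen after their values were seen.

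Probe sets of the same gene often differed in sign. Of the 27 genes with several probe sets, 12 had 1 sign throughout and 15 had both. Taking only the brightest probe set of each of the 56 genes, 33 were tested and 2 fell, Pcdh19 and Cdh13, while 0 rose (1 was higher and 6 lower at an unadjusted p of 0.05 in limma), and the median change was -0.057. The 45 dimmer probe sets had a median of 0.22, with 33 above 0, and held the only rise. Platform annotation gives no position within the transcript, so which exons or isoforms these probe sets read was not tested.

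**Figure D3:**
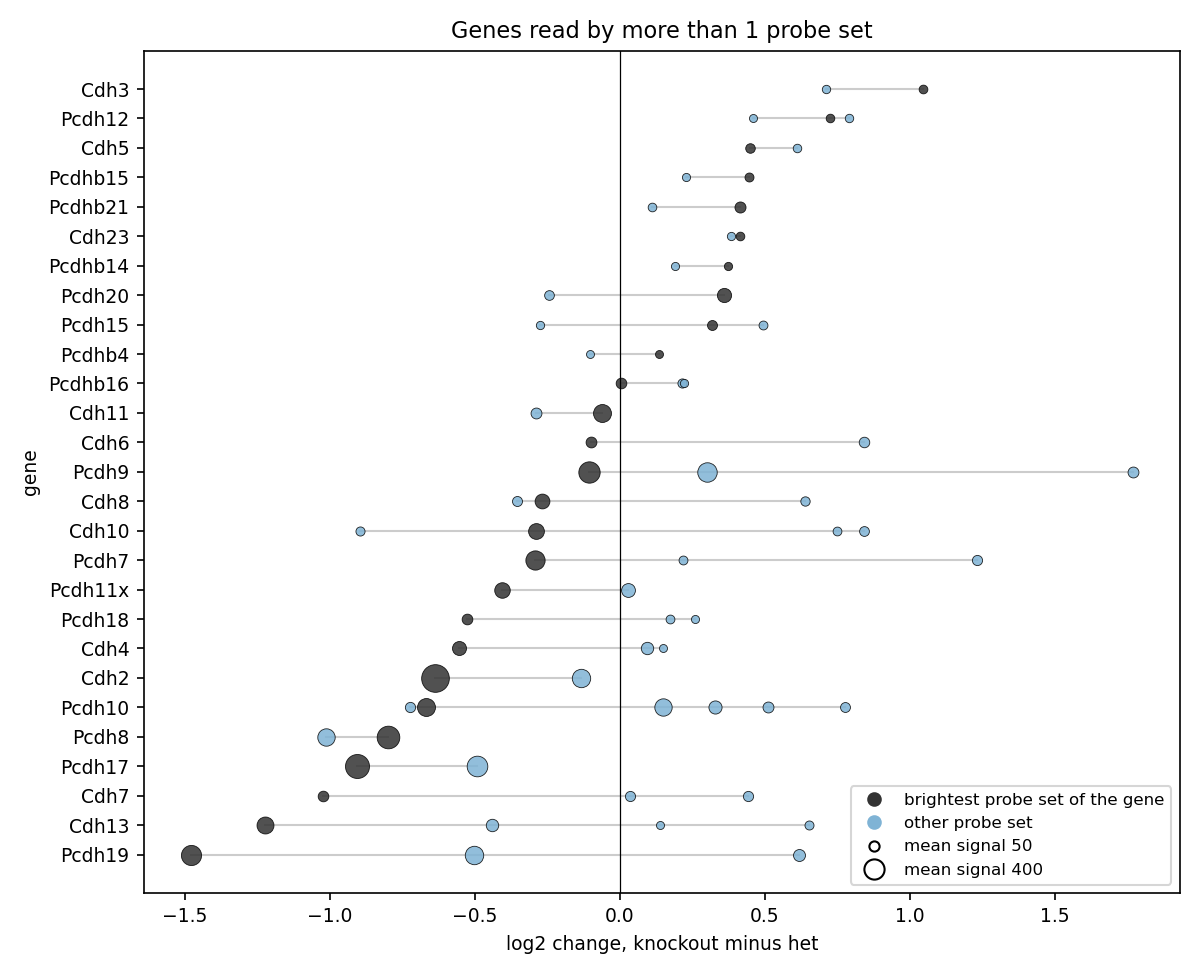
Log2 change (horizontal axis, knockout minus heterozygous) of every probe set of the 27 genes read by more than 1, with 1 row for each gene, the brightest probe set dark and the point size set by signal. Points of 15 genes lie on both sides of 0, among them Pcdh9, from -0.11 to 1.77, and Pcdh19, from -1.48 to 0.62.

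Single knockout arrays were placed against the range of the heterozygous arrays. Among the 26 members with a mean signal of 100 or more, knockout 67 lay below that range at 17, knockout 68 at 17 and knockout Ko1 at 13. The members' shares below it were 65.4%, 65.4% and 50%, beside 47.4%, 45.4% and 38.6% of all 11876 probe sets of that level. They lay above it at 3, 6 and 6. Each knockout array thus lay below the range more often than above it, as it did over all bright probe sets. Ko1 stood nearest to the heterozygous group: over all 101 members it lay within the heterozygous range at 38, beside 23 for 67 and 18 for 68. The same held for the whole arrays, where 35.8% of all probe sets lay within that range on Ko1, 24.9% on 67 and 27% on 68. Median log2 differences from the heterozygous mean over the 26 were -0.36, -0.61 and -0.13 on 67, 68 and Ko1. As a description over these 26 probe sets, which share arrays and scaling, the correlation with the heterozygous mean was 0.718, 0.637 and 0.816.

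**Figure D4:**
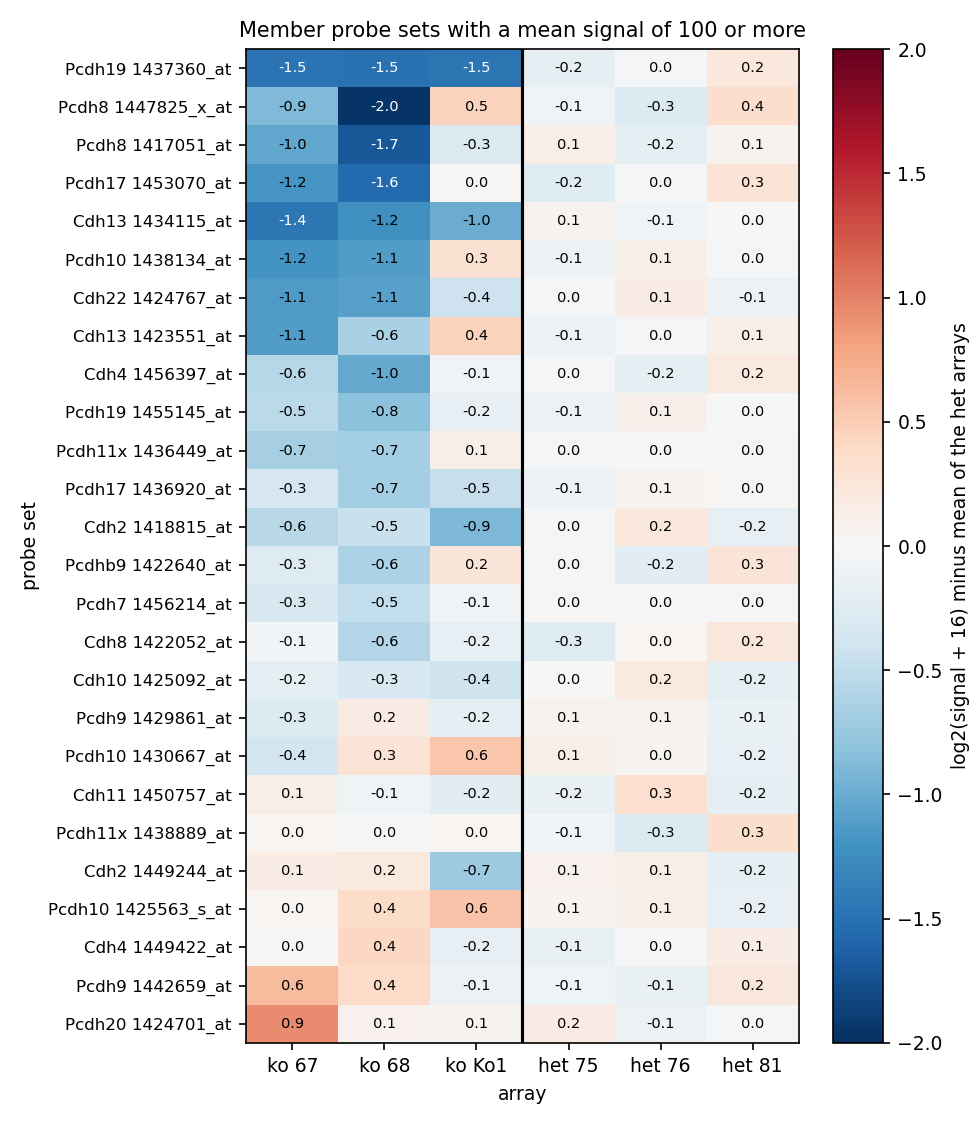
Log2 difference from the heterozygous mean on each of the 6 arrays (columns) for the 26 member probe sets with a mean signal of 100 or more (rows), coloured from blue (lower) to red (higher). Knockout 67 and 68 are blue in most rows, Ko1 in fewer, and Pcdh19 1437360_at and Cdh13 1434115_at are blue on all 3 knockout arrays.

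Partners of these proteins were read from 6 lists: catenins, receptors related to cadherins, nectins with afadin, the WAVE complex with focal adhesion kinases, factors of protocadherin promoter choice, and enzymes that cut cadherins. Together they held 58 genes and 138 probe sets, with a median change of 0.088. Of the 95 tested with limma, 1 rose, 0 fell and 94 did not pass (16 higher and 8 lower at an unadjusted p of 0.05, beside 11.7% and 9.22% of all probe sets tested). The rise was Ptk2b, a focal adhesion kinase, at 1442927_at, with 65.4, 73.7 and 86.8 on the knockout arrays and 3.31, 5.18 and 2.55 on the heterozygous arrays, a change of 2.21 ± 0.27 (adjusted p = 0.0171). Its heterozygous signals lay below 24.3, the lowest mean signal tested, so it passed the filter on level only through the knockout arrays. At the brighter 1434653_at Ptk2b overlapped, with a change of 0.38 ± 0.38 (adjusted p = 0.605). The count was 25 of 93 without knockout Ko1, beside 23.2% of all probe sets in that fit, where Ptk2b 1442927_at fell below the filter on level, and 0 when any of the other arrays was left out (13 to 16 at an unadjusted p of 0.05).

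Among 17 catenin probe sets tested 0 passed (3 higher and 3 lower at an unadjusted p of 0.05). Ctnnb1, or beta-catenin, which links cadherins to alpha-catenin, gave 4035, 3273 and 3293 against 2672, 2750.2 and 2333 at its brightest probe set, 1420811_a_at, higher on every knockout array, with a change of 0.45 ± 0.16 (adjusted p = 0.16) in limma. Ctnnbip1, an inhibitor of beta-catenin, gave 210.3, 122 and 124 against 452, 295 and 326 at 1417567_at. This probe set was lower on every knockout array, with a change of -1.17 ± 0.26 (limma, adjusted p = 0.0619). The brighter Ctnnbip1 probe set, 1431694_a_at, gave 375, 331 and 138 against 257, 263 and 209. It overlapped, with a change of 0.097 ± 0.34 (limma, adjusted p = 0.9). Of 15 probe sets of receptors related to cadherins 0 passed (1 higher and 2 lower), of 25 for promoter choice 0 (5 higher and 2 lower), of 14 for cadherin cleavage 0 (4 higher and 0 lower) and of 7 for nectins and afadin 0 (1 higher and 1 lower). Ctcf, the factor that joins protocadherin promoters to their enhancers, gave 175, 190.4 and 229 against 275, 251 and 287 at 1418330_at. This probe set was lower on every knockout array, with a change of -0.43 ± 0.19 (limma, adjusted p = 0.239). At the dimmer Ctcf probe set, 1449042_at, signals were 118, 137 and 108 against 88.1, 132 and 113. They overlapped, with a change of 0.12 ± 0.22 (limma, adjusted p = 0.786). Ctnnb1, Ctnnbip1 and Ctcf were chosen after their values were seen. For 15 receptors related to cadherins, sums over the brightest probe set of each gene were 2465 to 3588 on the knockout arrays. They were 3860 to 3999 on the heterozygous arrays, with 3 genes higher and 4 lower on every knockout array. For 12 promoter choice genes they were 2209 to 2716 against 2760 to 3095, with 1 higher and 3 lower. Sums of the other partner lists overlapped between groups.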

How the data were processed

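Total RNA of 6 samples was labelled by the Affymetrix one-cycle method, per the labels' protocols. Values came from GCOS, the Affymetrix scanner software, per the submitters' processing notes. The sources used here name neither its version nor the summary algorithm or scale factors. The deposited values are linear signal intensities scaled by the authors to the same trimmed mean (2% removed at each end) on every array.

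Of 45101 probe sets, 64 controls were left out. Genes were named from probe sets with 1 symbol in the platform annotation. Signals were transformed to log2(signal + 16). Probe sets whose mean log2 value lay above the median, 22518 in all, were tested with limma 3.58.1 in R 4.3.3 (lmFit, eBayes with trend, two-sided, Benjamini-Hochberg over all tested, threshold 0.05). Errors of log2 changes are standard errors and those of signals SD. The procedure was tested on simulated data. It recovered 9.28% of 97 probe sets given a log2 size of 1, and 64.6% of 99 given a size of 2. Both sizes were in the same simulation, where 4 probe sets in all that had been given none were also called. Exact permutation tests were two-sided. The number of arrays limits the precision.

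The text names members past the threshold, the 6 with the smallest p in each direction, the brightest of each class and the other probe sets of those genes, and any partner past the threshold. Members and lists were chosen with earlier results of these data known. Alternatives were quantile normalization, median centring, a floor of 1 in place of the offset, 64 added, no filter, a filter removing 75%, no trend, robust eBayes, 1 probe set per gene and leaving out each array. Leaving out 2 arrays together was added after the data were seen. Promoters came from RefSeq (GRCm38.p6).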

Additional observations from a re-analysis of the deposited data

How the results depend on the processing

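No paired analysis was possible because the groups share no sample numbers. The 1 member that rose became 0 with quantile normalization, median centring, no filter, the dimmest 75% removed, 1 probe set per gene and without knockout 67 and 68, and 6 without Ko1 and heterozygous 81. The 2 that fell became 1 with quantile normalization and 11 without Ko1 and 81. Leaving out each array gave 0 to 6 higher and 0 to 13 lower. The partner count of 1 became 4 with centring and without 67 and 68, 0 with the dimmest 75% removed or 1 probe set per gene, 20 without Ko1 and 81, and 0 to 25 leaving out each array. The member median of 0.15 was -9.4e-05 with quantile normalization, -0.25 with centring, 0.23 with a floor of 1, 0.072 with 64 added, -0.057 with 1 probe set per gene, 0.043 without 67 and 68, and 0.047 to 0.19 leaving out each array. Tyrobp, which was not tested with the dimmest 75% removed, was negative in the other fits, -1.94 to -1.38 leaving out each array. It passed without Ko1 (adjusted p = 0.0123 in limma) and missed the threshold without any of the other 5 arrays (0.0888 to 0.216), with a floor of 1 (-3.02) and at -1.68 with no filter, no trend or 1 probe set per gene (adjusted p of 0.0952, 0.0505 and 0.0527 in limma). Pcdh9 1458269_at missed it with quantile normalization, centring (1.37, adjusted p = 0.0527), no filter (0.0785) and without 67 and 68 (1.34, 0.0899), and Cdh13 1434115_at with quantile normalization.

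Changes of sign were as follows. With quantile normalization, Pcdh9 1429861_at was 0.019, Cdh11 1450757_at 0.075, Cdh2 1449244_at 0.0094 and Cdh7 1456970_at -0.18. With centring, Pcdh20 1424701_at was -0.041, Pcdh9 1442659_at -0.10, Pcdh10 1430667_at -0.25 and 1425563_s_at -0.074, and Cdh7 1456970_at -0.37. With a floor of 1 the last was -0.66. Without 67 and 68, Pcdhb9 1422640_at was 0.24, Pcdh17 1453070_at 0.018, Pcdh9 1442659_at -0.11, Pcdh10 1438134_at 0.30 and 1444301_at -0.067, Pcdh19 1444422_at -0.0093, Pcdh8 1447825_x_at 0.45, Pcdh20 1451454_at 0.32, Cdh8 1455365_at 0.29 and Cdh13 1423551_at 0.44. Without Ko1 and 81, Pcdh10 1430667_at was -0.14, Cdh2 1449244_at 0.067 and Cdh7 1456970_at -0.66. Leaving out each array, Cdh11 1450757_at ran from -0.15 to 0.11, Pcdh10 1430667_at from -0.055 to 0.41, Pcdh20 1451454_at from -0.52 to 0.00081, Cdh2 1449244_at from -0.30 to 0.17, Cdh7 1456970_at from -0.50 to 0.86 and Cdh8 1455365_at from -0.68 to 0.0049. The cause of these changes was not tested. The 3 arrays a group and the low signals of the untested members limit what could be measured.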

Other observations

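The alpha protocadherins, the third cluster, could not be assigned to single genes: 6 probe sets carry 9 or 14 alpha protocadherin symbols each and were outside the comparisons above. The brightest, 1420798_s_at, gave 413, 237 and 498 on the knockout arrays and 498, 579 and 717 on the heterozygous arrays, with Ko1 just under heterozygous 75 and the other knockout arrays further below, a change of -0.67 ± 0.28 (adjusted p = 0.224) in limma. The next, 1424341_s_at, overlapped with 237, 291 and 276 against 288, 232 and 196, a change of 0.17 ± 0.21 (adjusted p = 0.681). At 1451769_s_at the signals were 182, 103 and 55.1 against 68.3, 76.3 and 98.3, a change of 0.31 ± 0.36 (adjusted p = 0.663). The other 3 were dim and not tested, and 1425017_at among them was higher on every knockout array, with 51.2, 54.7 and 24.7 against 3.89, 9.30 and 8.56. Thus the brightest alpha probe set was lower and 1425017_at higher on every knockout array, while the others overlapped. Of all probe sets with a mean signal below 50, 19.1% were higher on every knockout array. The probe set 1425017_at was chosen after its values were seen.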
